A study of Homo sapiens with 4 samples.

Results

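The genes described here carry glucose into the cell and through glycolysis, lactate production, entry into the mitochondrion and the pentose phosphate pathway. They are 37 genes named by symbol, and 36 of the 37 had a row among the 12033 genes measured. No expression value of PDK4 was analysed here. Of the 36, 33 had a mean of at least 2 RPKM (reads per kilobase of transcript, scaled to library size) over the 4 libraries and were compared, as were 7596 genes in all. PDK1 was below that mean, and PFKFB2 and ENO3 lay at the floor of 1.0 RPKM, the lowest value the data hold, in all 4 libraries.

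The study searched for enhancers needed for oncogene-induced senescence, and these libraries follow the targeting of EnhAP1-OIS1, an enhancer with a binding site of the transcription factor AP-1, or of FOXF1, the forkhead transcription factor gene that the labels give as its target. All 4 groups were BJ cells, human foreskin fibroblasts immortalized with hTERT, in which the oncogene RASG12V was induced by 4-OHT (4-hydroxytamoxifen) for 14 days, and each carried a CRISPR-Cas9 vector. The guides were sgRNA-AP1-69 and sgRNA-AP1-71, both aimed at the AP-1 site of EnhAP1-OIS1, sgRNA-FOXF1, aimed at the FOXF1 gene, and sgRNA-NT, a non-targeting control. Each group was a transduced cell population and gave 1 RNA-seq library, cells without RAS induction were not analysed here, and the 3 comparisons with sgRNA-NT share that library. No value below therefore has a replicate error, no p-value could be computed for any difference, and a ratio compares libraries rather than conditions. As a yardstick, the log2 ratio of sgRNA-AP1-71 over sgRNA-AP1-69, which were aimed at the same site, had an SD of 0.29 over all genes compared and of 0.25 over the members, and 94.7% of all genes compared lay within 1.5-fold between them.

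Glycolysis converts glucose to pyruvate in the cytosol. Glucose enters through facilitative transporters and is trapped by hexokinase, phosphofructokinase commits it to breakdown, and the later steps yield ATP and NADH. Pyruvate is then reduced to lactate and exported, or enters the mitochondrion through the pyruvate dehydrogenase complex, which pyruvate dehydrogenase kinases inhibit. The pentose phosphate pathway branches off after hexokinase and supplies NADPH and ribose. Many of these genes are textbook targets of the hypoxia-inducible factors (HIF), and oncogenic RAS is known to raise glucose uptake.

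FOXF1 itself was at 11.1 with sgRNA-AP1-69, 7.8 with sgRNA-AP1-71 and 25 RPKM with sgRNA-FOXF1, against 29.6 RPKM with sgRNA-NT. Transcripts with small insertions or deletions are still counted, so the level with sgRNA-FOXF1 is no check of editing. The paper reports that western blotting showed the FOXF1 knockout. It also reports small deletions and insertions at the AP-1 motif with both enhancer guides. HRAS is the RAS gene whose induced version the paper's western blot marks as ER-HRas. It was at 446.4 with sgRNA-AP1-69, 427.4 with sgRNA-AP1-71 and 707.6 RPKM with sgRNA-FOXF1, against 829.4 RPKM with sgRNA-NT (log2 ratios -0.89, -0.96 and -0.23). The level of the induced oncogene may therefore differ between the libraries, and its part in the results was not tested. Fibroblast markers were detected for 8 of 9 genes (FAP was at the floor), with summed levels of 8757 with sgRNA-AP1-69, 10056 with sgRNA-AP1-71 and 7875 RPKM with sgRNA-FOXF1, against 5783 RPKM with sgRNA-NT. The sums are carried by S100A6 and VIM, the most abundant of these genes: over the 8, the median log2 ratio was -0.48, -0.29 and -0.02 in the targeted libraries (sgRNA-AP1-69, sgRNA-AP1-71, sgRNA-FOXF1), with 4, 3 and 0 genes at least 1.5-fold lower and 1, 1 and 2 higher, and their part in the results was not tested. None of 4 epithelial and none of 4 endothelial markers had a row, 1 of 4 blood markers did (CD14, between 6.0 and 9.8 RPKM), and 1 of 4 muscle markers was listed, at the floor. Transcripts of the mitochondrial genome, 13 in number, had a median log2 ratio to sgRNA-NT of -1.02, -1.54 and -0.77 in the targeted libraries (sgRNA-AP1-69, sgRNA-AP1-71, sgRNA-FOXF1). In bulk RNA, fewer cells of a type and less RNA per cell cannot be told apart.

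The transcripts of a glucose transporter and of a hexokinase were lower in every targeted library. The other transporter and the other hexokinase among the members, SLC2A3 and HK1, stayed within 1.5-fold of sgRNA-NT. In all, 23 of 33 members stayed within 1.5-fold throughout, as 60.6% of all genes compared did. SLC2A1, the glucose transporter GLUT1, and HK2, the inducible hexokinase bound to mitochondria, were the members at least 1.5-fold lower in all 3 targeted libraries. That is 2 of 33 members (6.06%), close to the 5.85% of all genes compared that were lower by as much in all 3. GAPDH was the only member at least 1.5-fold higher in all 3 (3.03% of the members, 4.98% of all genes compared). The members that passed 1.5-fold in 1 or 2 libraries only were ALDOC, ENO1, ENO2, LDHA, PDK3, PFKFB4 and PFKP.

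**Figure D1:**
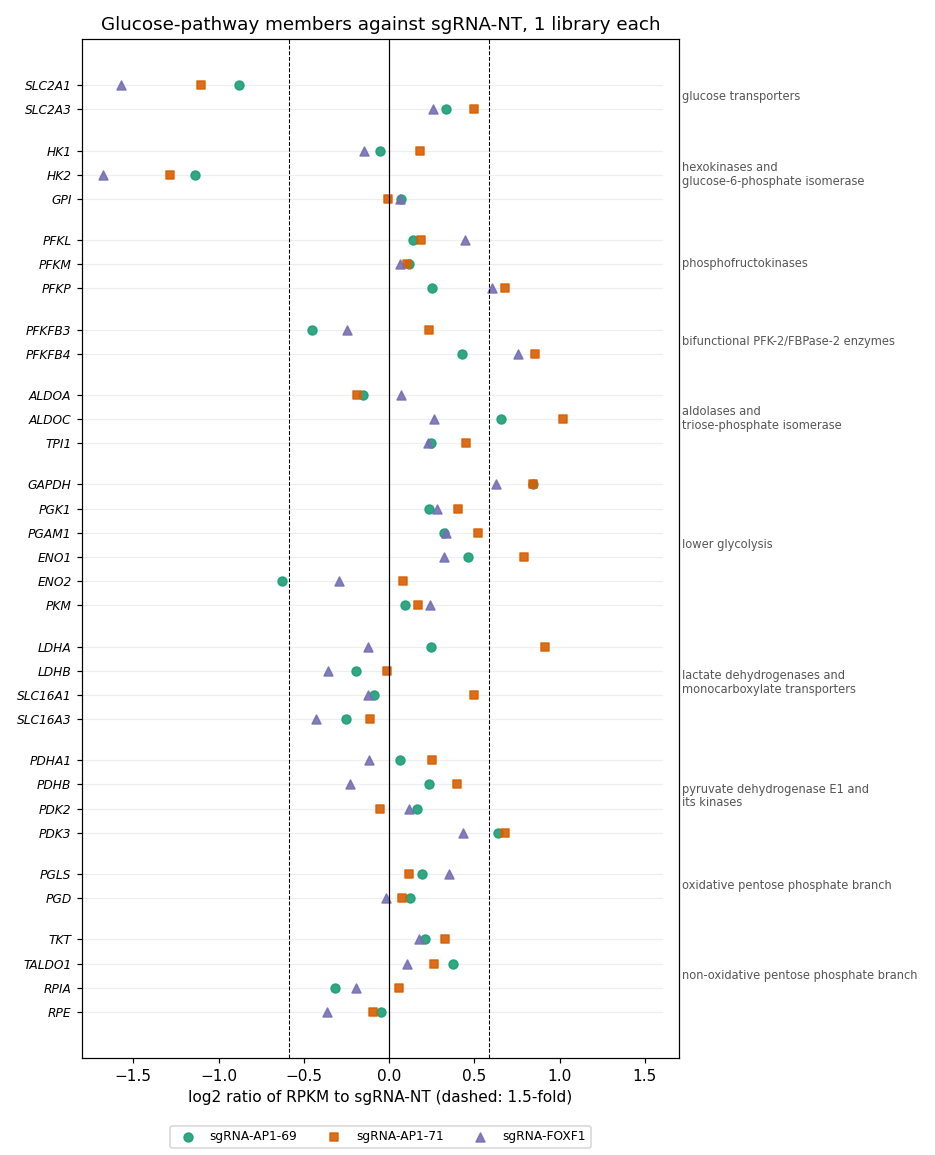
Log2 ratio of RPKM to sgRNA-NT (x axis) of the 33 compared members, ordered by their role, with circles for sgRNA-AP1-69, squares for sgRNA-AP1-71 and triangles for sgRNA-FOXF1 (1 library each); dashed lines mark 1.5-fold. SLC2A1 and HK2 lie left of the lower line in all 3 libraries, at -0.88 to -1.68, and GAPDH lies right of the upper line in all 3, at 0.63 to 0.84.

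Counted library by library, 3 members were at least 1.5-fold higher with sgRNA-AP1-69 (ALDOC, GAPDH and PDK3; 9.09% of members against 8.18% of all genes compared) and 3 were lower (ENO2, HK2 and SLC2A1; 9.09% against 9.93%). With sgRNA-AP1-71, 7 members were higher (ALDOC, ENO1, GAPDH, LDHA, PDK3, PFKFB4 and PFKP; 21.2% against 14.0%) and HK2 and SLC2A1 were lower (6.06% against 14.7%). With sgRNA-FOXF1, 3 were higher (GAPDH, PFKFB4 and PFKP; 9.09% against 11.6%) and HK2 and SLC2A1 were again lower (6.06% against 13.2%). The share of lower members was thus below that of all genes in each library, and the share of higher members was above it with both enhancer guides and below it with sgRNA-FOXF1, each difference resting on a few genes. The median log2 ratio of the members was 0.14, 0.24 and 0.07 in the targeted libraries (sgRNA-AP1-69, sgRNA-AP1-71, sgRNA-FOXF1), beside 0.07, 0.08 and 0.05 over all genes compared.

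By a stricter rule of 2-fold, HK2 alone was lower in all 3 targeted libraries (3.03% of the members, beside 1.71% of all genes compared), and 0 members were higher (beside 0.895%). With sgRNA-AP1-69, HK2 was lower (3.03%, beside 3.30%) and 0 members were higher (beside 1.34%). With sgRNA-AP1-71, HK2 and SLC2A1 were lower (6.06%, beside 6.38%) and ALDOC was higher (3.03%, beside 3.80%). With sgRNA-FOXF1, HK2 and SLC2A1 were lower (6.06%, beside 4.96%) and 0 members were higher (beside 3.20%). No member reached 2-fold between sgRNA-FOXF1 and the enhancer guides, either higher (beside 1.16%) or lower (beside 0.461%), or between sgRNA-AP1-71 and sgRNA-AP1-69 (beside 0.303% higher and 0.197% lower). HK2 and SLC2A1 were thus the members furthest below sgRNA-NT under either rule.

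SLC2A1 was at 53.3 with sgRNA-AP1-69, 45.7 with sgRNA-AP1-71 and 32.9 RPKM with sgRNA-FOXF1, against 98.0 RPKM with sgRNA-NT. It was lowest with sgRNA-FOXF1 and highest with sgRNA-NT, and the enhancer guides lay close to each other. The log2 ratios were -0.88, -1.10 and -1.57, or 1.84-fold, 2.14-fold and 2.98-fold lower, and the mean over the enhancer guides was -0.99 ± 0.16 (SD, n = 2 guides). Of all genes compared, 4.46%, 4.98% and 1.20% had a ratio as low or lower in the targeted libraries (sgRNA-AP1-69, sgRNA-AP1-71, sgRNA-FOXF1). SLC2A1 (ENSG00000117394) lies on the minus strand of chromosome 1 at 43391024 to 43424564 of hg19 and has 10 exons. Its antisense transcript SLC2A1-AS1 was at 1.0, 1.5 and 1.0 RPKM in the targeted libraries and at 1.3 RPKM with sgRNA-NT, close to the floor.

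SLC2A3, the high-affinity transporter GLUT3, was at 7.7, 8.6 and 7.3 RPKM in the targeted libraries (sgRNA-AP1-69, sgRNA-AP1-71, sgRNA-FOXF1), against 6.1 RPKM with sgRNA-NT (log2 ratios 0.34, 0.50 and 0.26). It was thus slightly above sgRNA-NT in each targeted library, within 1.5-fold, where SLC2A1 was below it. RPKM is per length, so the levels of both transporters can be added: SLC2A3 made up 12.6%, 15.8% and 18.2% of their summed RPKM in the targeted libraries and 5.86% with sgRNA-NT. The sum itself was 61.0, 54.3 and 40.2 RPKM in the targeted libraries, against 104.1 RPKM with sgRNA-NT. Other SLC2A genes are no members and are not in this sum. Among them, SLC2A6 was at 16.3, 17.3 and 15.7 RPKM, against 14.6 RPKM with sgRNA-NT, above SLC2A3 in every library. SLC2A14, a near-identical copy of SLC2A3, was not analysed here, and whether reads of it were counted as SLC2A3 was not tested.

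HK2 was at 18.9 with sgRNA-AP1-69, 17.1 with sgRNA-AP1-71 and 13.0 RPKM with sgRNA-FOXF1, against 41.6 RPKM with sgRNA-NT. The order of the libraries was that of SLC2A1, with sgRNA-FOXF1 lowest. The log2 ratios were -1.14, -1.28 and -1.68, or 2.20-fold, 2.43-fold and 3.20-fold lower, the lowest ratio of any compared member in each library, with a mean of -1.21 ± 0.10 over the enhancer guides (SD, n = 2 guides). Ratios as low or lower were found for 2.20%, 3.50% and 0.987% of all genes compared. HK2 (ENSG00000159399) lies on the plus strand of chromosome 2 at 75061254 to 75120486 of hg19 and has 18 exons.

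HK1, the hexokinase that most cells express, was at 41.1, 48.4 and 38.5 RPKM in the 3 targeted libraries and at 42.6 RPKM with sgRNA-NT (log2 ratios -0.05, 0.18 and -0.15). With sgRNA-NT both hexokinases were thus at the same level, whereas HK1 was the more abundant in each targeted library. The share of HK2 in their summed RPKM was 31.5%, 26.1% and 25.2% in the targeted libraries (sgRNA-AP1-69, sgRNA-AP1-71, sgRNA-FOXF1), against 49.4% with sgRNA-NT. GPI, which isomerizes glucose 6-phosphate after hexokinase, was at 27.1, 25.7 and 27.0 RPKM, against 25.8 RPKM with sgRNA-NT. Its levels thus spanned only 25.7 to 27.1 RPKM.

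**Figure D2:**
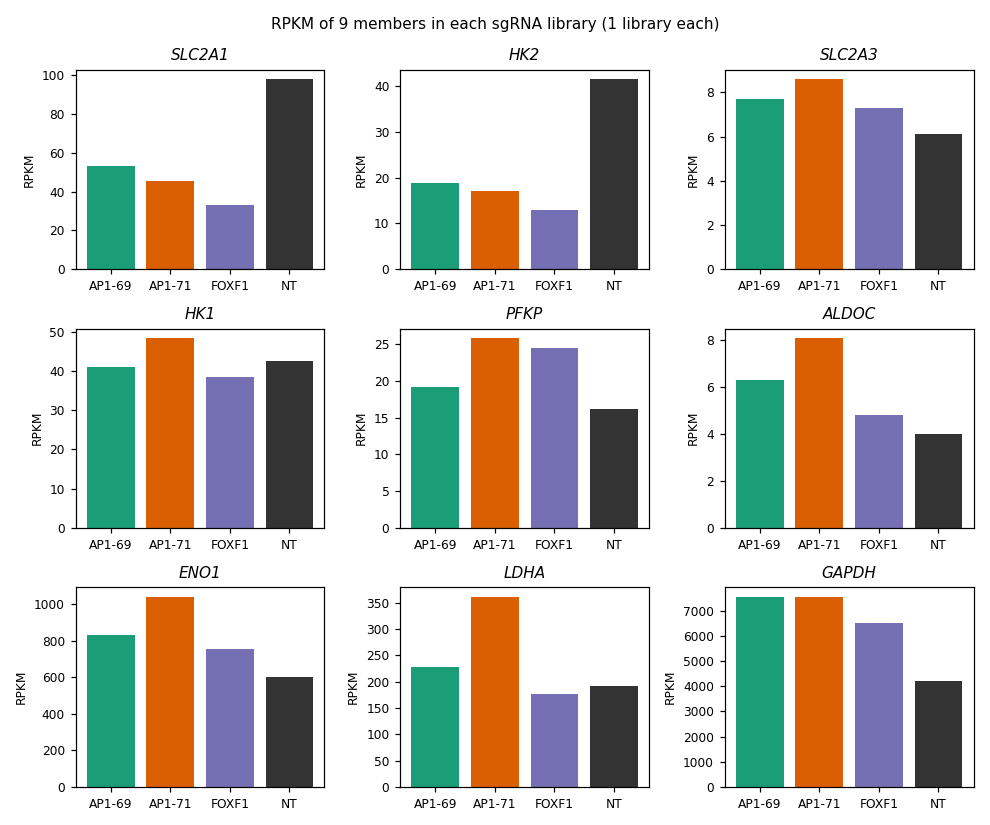
RPKM (y axes, from 0) of 9 members with sgRNA-AP1-69, sgRNA-AP1-71, sgRNA-FOXF1 and sgRNA-NT, 1 library per bar and therefore no error bars. SLC2A1 and HK2 are highest with sgRNA-NT (98.0 and 41.6 RPKM), GAPDH and ENO1 are lowest with sgRNA-NT (4212.3 and 601.0 RPKM), and LDHA stands out with sgRNA-AP1-71 (361.4 RPKM).

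The promoter windows of both lower members are shown because both genes were lower in all 3 targeted libraries, beside those of ENO1 and LDHA, HIF-regulated members that were not. Each runs from 250 bases before to 50 bases after a transcript start in RefSeq (GRCh38.p14, coordinates of that build) and is the first listed for the gene in the RefSeq table. Capitals mark the core of the HIF-binding element, ACGTG or GCGTG, on either strand, and adjoining or overlapping matches are joined.
SLC2A1 (chr1:42958819-42959118, minus strand): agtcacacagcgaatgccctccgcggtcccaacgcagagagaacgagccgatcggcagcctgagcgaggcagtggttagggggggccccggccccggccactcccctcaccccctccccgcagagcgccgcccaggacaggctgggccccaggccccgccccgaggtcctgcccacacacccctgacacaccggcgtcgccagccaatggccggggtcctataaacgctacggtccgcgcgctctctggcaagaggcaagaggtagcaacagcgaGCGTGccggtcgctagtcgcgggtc
HK2 (chr2:74833877-74834176, plus strand): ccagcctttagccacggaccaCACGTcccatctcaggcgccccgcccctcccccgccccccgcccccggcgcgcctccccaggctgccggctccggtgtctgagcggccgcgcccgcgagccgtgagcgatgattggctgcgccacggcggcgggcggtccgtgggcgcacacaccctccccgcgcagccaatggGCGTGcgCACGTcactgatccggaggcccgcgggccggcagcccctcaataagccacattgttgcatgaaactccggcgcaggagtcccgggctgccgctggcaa
ENO1 (chr1:8878637-8878936, minus strand): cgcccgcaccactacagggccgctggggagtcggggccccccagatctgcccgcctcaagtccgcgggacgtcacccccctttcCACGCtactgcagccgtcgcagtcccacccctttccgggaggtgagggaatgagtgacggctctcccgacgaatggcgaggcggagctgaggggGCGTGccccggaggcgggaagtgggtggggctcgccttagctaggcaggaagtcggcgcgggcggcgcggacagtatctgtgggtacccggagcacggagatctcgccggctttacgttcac
LDHA (chr11:18394313-18394612, plus strand): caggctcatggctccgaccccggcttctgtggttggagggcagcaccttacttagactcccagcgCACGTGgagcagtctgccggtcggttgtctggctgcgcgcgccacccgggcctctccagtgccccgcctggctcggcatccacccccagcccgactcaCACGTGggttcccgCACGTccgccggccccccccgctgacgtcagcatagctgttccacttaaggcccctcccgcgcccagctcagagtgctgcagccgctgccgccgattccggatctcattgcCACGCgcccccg
The windows held 1 marked stretch in SLC2A1, 3 in HK2, 2 in ENO1 and 4 in LDHA, of which 2 in LDHA are the palindromic E-box CACGTG, which contains the core on both strands. Counted as single matches, where a CACGTG counts on both strands, the printed windows held 1 in SLC2A1, 3 in HK2, 2 in ENO1 and 6 in LDHA. HK2 and LDHA each have a further window, not printed. By the same count it held 6 matches of the core and 2 E-boxes in HK2, and 1 match and 0 E-boxes in LDHA. No order between the genes is therefore read from the printed windows. The core was present in 38 of the 63 windows of the members (60.3%), in 62.7% of 8537 windows of the genes compared and in 48.4% of all 35116 windows of the same length. Members with a window numbered 34, PDK4 included, and 28 of these had the core in at least 1 window. CACGTG was present in 12.7% of the members' windows, 9.89% of those of the genes compared and 7.26% of all windows. The AP-1 element TGACTCA was present in 3 of the members' windows (4.76%, beside 3.53% and 4.95%) and the forkhead element TGTTTAC in 0 (beside 2.31% and 3.42%), both searched on either strand. The members' windows thus held these letters about as often as those of other genes compared, and a match is not evidence of binding.

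The phosphofructokinases, which commit sugar to glycolysis, were at or above sgRNA-NT in each targeted library. PFKP, the platelet isoform, was at 19.2 with sgRNA-AP1-69, 25.8 with sgRNA-AP1-71 and 24.5 RPKM with sgRNA-FOXF1, against 16.1 RPKM with sgRNA-NT (log2 ratios 0.25, 0.68 and 0.61). PFKL, the liver isoform, was at 21.5, 22.2 and 26.6 RPKM, against 19.5 RPKM with sgRNA-NT, and was highest with sgRNA-FOXF1. PFKM, the muscle isoform, had ratios between 0.06 and 0.12. The summed level of the 3 isoforms was 59.8, 66.9 and 69.5 RPKM in the targeted libraries and 53.2 RPKM with sgRNA-NT, and PFKP made up 32.1%, 38.6% and 35.3% of it, against 30.3% with sgRNA-NT.

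The bifunctional enzymes that make and degrade fructose 2,6-bisphosphate, an activator of phosphofructokinase, differed among themselves. PFKFB4 was at 3.5, 4.7 and 4.4 RPKM in the targeted libraries, against 2.6 RPKM with sgRNA-NT (log2 ratios 0.43, 0.85 and 0.76). PFKFB3, which favours synthesis of the activator, was at 13.6, 21.9 and 15.7 RPKM, against 18.6 RPKM with sgRNA-NT (log2 ratios -0.45, 0.24 and -0.24). PFKFB4 was thus above sgRNA-NT in each targeted library, whereas PFKFB3 lay on either side of it and was the more abundant of both throughout.

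Among the aldolases, which split the six-carbon sugar, ALDOA was far the more abundant, at 223.1, 217.5 and 261.0 RPKM in the targeted libraries and 248.3 RPKM with sgRNA-NT. ALDOC, the aldolase best known from brain, was at 6.3 with sgRNA-AP1-69, 8.1 with sgRNA-AP1-71 and 4.8 RPKM with sgRNA-FOXF1, against 4.0 RPKM with sgRNA-NT. Its log2 ratios were 0.66, 1.02 and 0.26, so that it reached 2.03-fold with sgRNA-AP1-71 and 1.20-fold with sgRNA-FOXF1, but it made up at most 3.59% of the summed aldolase level. TPI1, which interconverts both triose phosphates, was at 471.0, 543.9 and 465.0 RPKM, against 397.3 RPKM with sgRNA-NT.

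Lower glycolysis held the 3 most abundant members, GAPDH, PKM and ENO1, and all of those compared except ENO2 were above sgRNA-NT in each targeted library. GAPDH, which oxidizes glyceraldehyde 3-phosphate, was at 7555.4 with sgRNA-AP1-69, the same with sgRNA-AP1-71 and 6517.0 RPKM with sgRNA-FOXF1, against 4212.3 RPKM with sgRNA-NT (log2 ratios 0.84, 0.84 and 0.63). The values of the 4 libraries were quantile-normalized by the authors, so a gene's value follows from its rank. GAPDH had 7, 7 and 8 genes above it in the targeted libraries and 10 with sgRNA-NT, of which 3, 3, 4 and, with sgRNA-NT, 6 were mitochondrial transcripts, while 4 others stood above it in every library. With the 13 mitochondrial transcripts left out and the values normalized again, an alternative chosen after seeing the data, the log2 ratio of GAPDH was 0.00 in all 3 libraries. That value is set by its rank, which was then the same in the 4 libraries, and a difference that leaves the rank unchanged would not show.

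ENO1, the ubiquitous enolase, was at 829.4 with sgRNA-AP1-69, 1039.3 with sgRNA-AP1-71 and 751.9 RPKM with sgRNA-FOXF1, against 601.0 RPKM with sgRNA-NT (log2 ratios 0.46, 0.79 and 0.32). ENO2, the neuronal enolase, was at 4.6, 7.5 and 5.8 RPKM, against 7.1 RPKM with sgRNA-NT (log2 ratios -0.63, 0.08 and -0.29). ENO2 was thus past 1.5-fold with sgRNA-AP1-69 alone, and ENO1 made up at least 98.7% of the summed enolase level in every library. PKM, the pyruvate kinase that forms pyruvate, was at 1110.8, 1166.9 and 1229.5 RPKM, against 1039.3 RPKM with sgRNA-NT (log2 ratios 0.10, 0.17 and 0.24). PGK1, which makes the pathway's first ATP, and PGAM1, the mutase after it, had ratios between 0.23 and 0.52. Processed pseudogenes of several of these genes are known, and how their reads were assigned is not stated.

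LDHA, the subunit of lactate dehydrogenase that favours lactate production, was the member furthest apart between sgRNA-FOXF1 and the mean of both enhancer guides, which rests on sgRNA-AP1-71: the log2 ratio of sgRNA-FOXF1 was -1.04 over sgRNA-AP1-71 and -0.37 over sgRNA-AP1-69, where SLC2A1 was lower still, at -0.70. It was at 227.8 with sgRNA-AP1-69, 361.4 with sgRNA-AP1-71 and 175.8 RPKM with sgRNA-FOXF1, against 191.8 RPKM with sgRNA-NT (log2 ratios 0.25, 0.91 and -0.13). LDHA thus passed 1.5-fold with sgRNA-AP1-71 alone, and the mean over the enhancer guides was 0.58 ± 0.47 (SD, n = 2 guides). LDHA (ENSG00000134333) lies on the plus strand of chromosome 11 at 18416107 to 18429972 of hg19 and has 8 exons. Its pseudogene LDHAP4 was also highest with sgRNA-AP1-71, at 26.5, 44.5 and 22.3 RPKM, against 20.7 RPKM with sgRNA-NT, and how reads shared by both were assigned is not stated. LDHB, the other subunit, was at 126.6, 144.0 and 113.2 RPKM, against 145.1 RPKM with sgRNA-NT, so that LDHA made up 64.3%, 71.5% and 60.8% of their sum in the targeted libraries and 56.9% with sgRNA-NT.

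The monocarboxylate transporters export lactate. SLC16A3, the transporter MCT4, was at 72.3, 79.7 and 64.0 RPKM in the targeted libraries and at 86.2 RPKM with sgRNA-NT, and was the main carrier of the pair in every library. SLC16A1, the transporter MCT1, was at 8.0, 12.0 and 7.8 RPKM, against 8.5 RPKM with sgRNA-NT, and made up 9.96%, 13.1% and 10.9% of the pair, against 8.98% with sgRNA-NT. Both are named after their values were seen. No member of the lactate group, the dehydrogenase subunits and the transporters, was above sgRNA-NT with sgRNA-FOXF1 (0 of 4, beside 53.9% of all genes compared, with log2 ratios between -0.43 and -0.12).

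**Figure D3:**
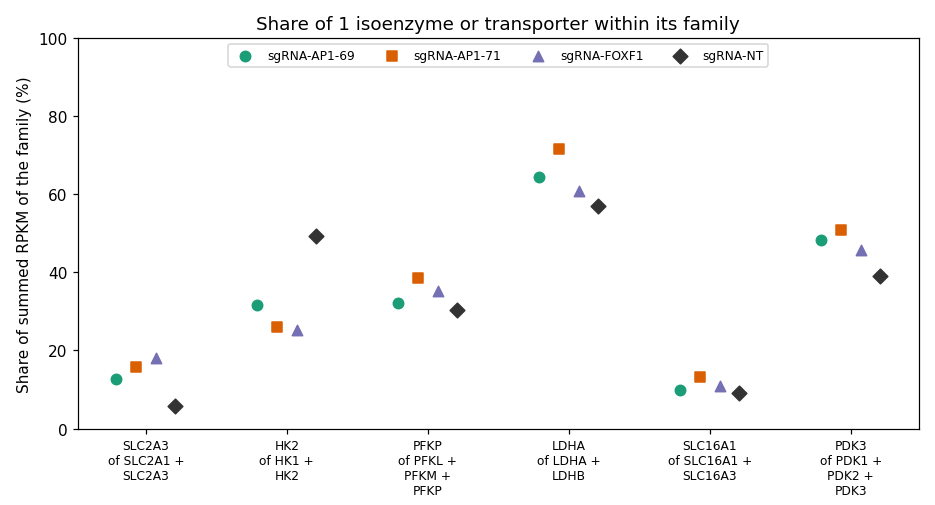
Share of a member in the summed RPKM of its family (y axis, percent; the families are named under the x axis) with sgRNA-AP1-69, sgRNA-AP1-71, sgRNA-FOXF1 and sgRNA-NT, 1 library per symbol. HK2 takes 25.2% to 31.5% of the hexokinase sum in the targeted libraries and 49.4% with sgRNA-NT. SLC2A3 takes 12.6% to 18.2% of the sum of SLC2A1 and SLC2A3, against 5.86%.

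At the entry of pyruvate into the mitochondrion, the E1 subunits of pyruvate dehydrogenase stayed near sgRNA-NT. PDHA1 was at 14.4, 16.4 and 12.7 RPKM in the targeted libraries, against 13.8 RPKM with sgRNA-NT, and PDHB was at 15.2, 17.0 and 11.0 RPKM, against 12.9 RPKM. PDK3, a kinase that inhibits the complex, was at 9.8 with sgRNA-AP1-69, 10.1 with sgRNA-AP1-71 and 8.5 RPKM with sgRNA-FOXF1, against 6.3 RPKM with sgRNA-NT (log2 ratios 0.64, 0.68 and 0.43). It was above sgRNA-NT in all 3, past 1.5-fold with the enhancer guides. Corrected for transcript length, its log2 ratios were 0.49, 0.50 and 0.24, within 1.5-fold in each. PDK2, the widely expressed kinase, had ratios between -0.05 and 0.16. PDK1, known as a HIF target, was at 1.1, 1.7 and 1.0 RPKM, against 1.4 RPKM with sgRNA-NT, too close to the floor for a ratio. PDK3 made up 48.3%, 50.8% and 45.7% of the summed level of these 3 kinases, against 39.1% with sgRNA-NT.

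No member of the pentose phosphate pathway reached 1.5-fold in any targeted library. In its oxidative branch, which yields NADPH, PGD was at 76.5, 73.9 and 69.4 RPKM, against 70.2 RPKM with sgRNA-NT, and PGLS was at 31.1, 29.5 and 34.7 RPKM, against 27.2 RPKM. TALDO1, the transaldolase of the non-oxidative branch, was at 107.3, 99.6 and 89.2 RPKM, against 82.9 RPKM with sgRNA-NT. TKT, the transketolase, was at 59.3, 64.4 and 58.0 RPKM, against 51.3 RPKM with sgRNA-NT. Both were above sgRNA-NT in each targeted library, by 0.11 to 0.37 on the log2 scale, whereas RPIA and RPE, which interconvert pentose phosphates, had ratios between -0.36 and 0.06.

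Comparisons that leave out the sgRNA-NT library also separated a few members. Relative to the mean of both enhancer guides, 25 of 33 members were lower with sgRNA-FOXF1 (75.8%, beside 53.1% of all genes compared), with a median log2 ratio of -0.14 beside -0.03. Past 1.5-fold were LDHA, at -0.71, and SLC2A1, at -0.59 (6.06% of members, beside 3.54%), and ALDOC at -0.57 and PDHB at -0.55 lay just inside. None of the members was higher by 1.5-fold (0 of 33, beside 5.86%). Both calls depended on the guide: over sgRNA-AP1-71 alone, the 4 members past 1.5-fold were LDHA at -1.04, ALDOC at -0.75, PDHB at -0.63 and SLC16A1 at -0.62, with SLC2A1 at -0.47. Over sgRNA-AP1-69 alone, the 1 such member was SLC2A1, at -0.70.

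Between the enhancer guides, 4 members were at least 1.5-fold higher with sgRNA-AP1-71 than with sgRNA-AP1-69 (12.1%, beside 2.41% of all genes compared) and 0 were lower (beside 2.84%). They were ENO2 (log2 ratio 0.71), PFKFB3 (0.69), LDHA (0.67) and SLC16A1, at exactly 1.5-fold. The median over the members was 0.16, beside 0.00 over all genes, and 22 of 33 members (66.7%) were above 0, beside 47.3%. The shift was not particular to the members. Of the lists described below, common reference genes had a median of 0.20 (13 of 13 above 0). HIF-regulated genes outside glycolysis had a median of 0.27 (15 of 19 above 0). Other genes of the pathway and its regulators had medians of -0.05 and -0.13 (14 of 34 and 3 of 12 above 0). HK2 and SLC2A1 were lower with sgRNA-AP1-71, by -0.14 and -0.22, less than the SD of 0.29 between these libraries over all genes.

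**Figure D4:**
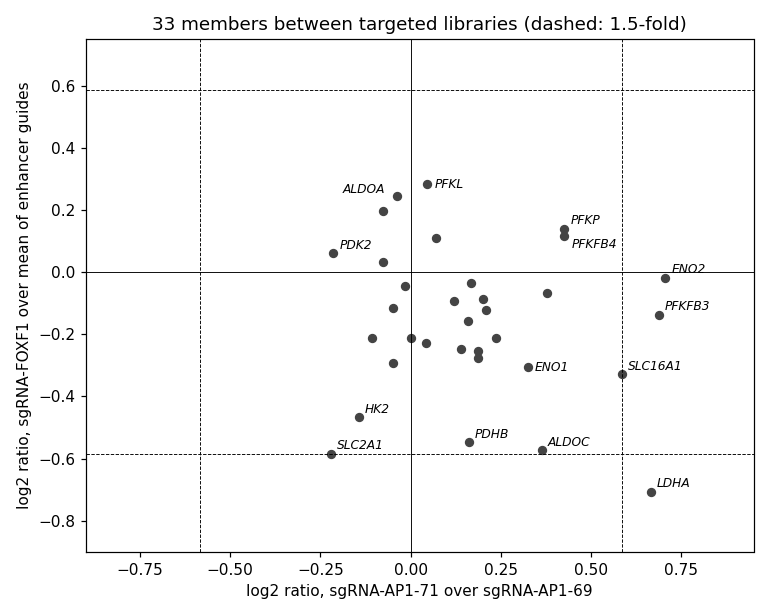
Each point is 1 of 33 compared members, with the log2 ratio of sgRNA-AP1-71 over sgRNA-AP1-69 on the x axis and of sgRNA-FOXF1 over the mean of both enhancer guides on the y axis; dashed lines mark 1.5-fold. LDHA, at 0.67 and -0.71, passes both limits, and most points lie right of 0 on the x axis (22 of 33) and below 0 on the y axis (25 of 33).

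Transcript length moved with the ratios. Over 7566 genes with a length, the Spearman correlation of the log2 ratio with transcript length was -0.50, -0.44 and -0.45 in the targeted libraries (sgRNA-AP1-69, sgRNA-AP1-71, sgRNA-FOXF1), and over the 33 members it was -0.40, -0.22 and -0.25. The points share their libraries, and these values are a description. HK2, the longest of the members named as lower, has a transcript of 5626 nt, SLC2A1 has 3384 nt and GAPDH has 1285 nt, where the median of all genes compared was 2902 nt. Corrected for length, HK2 was at -0.84, -0.94 and -1.35 and SLC2A1 at -0.78, -0.97 and -1.49, still past 1.5-fold in all 3 libraries. GAPDH was then at 0.62, 0.58 and 0.38, past 1.5-fold with sgRNA-AP1-69 alone.

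Other genes of the pathway, 64 symbols of which 34 were compared, had a median log2 ratio of 0.16, 0.11 and 0.06 in the targeted libraries (sgRNA-AP1-69, sgRNA-AP1-71, sgRNA-FOXF1). At least 1.5-fold higher were 5, 9 and 6 of the 34 (beside 8.18%, 14.0% and 11.6% of all genes compared), and 0, 3 and 1 were lower (beside 9.93%, 14.7% and 13.2%). PGM1, which links glucose 6-phosphate to glycogen, was on average over the 3 libraries the furthest from sgRNA-NT of those named here, at 13.2, 19.1 and 16.5 RPKM, against 8.6 RPKM.

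Several regulators of the pathway were lower in the targeted libraries. Of 12 compared, 6, 7 and 7 were at least 1.5-fold lower (sgRNA-AP1-69, sgRNA-AP1-71, sgRNA-FOXF1; beside 9.93%, 14.7% and 13.2% of all genes compared), 5 of them in all 3 (beside 5.85%), and 0 were higher (beside 8.18%, 14.0% and 11.6%), with medians of -0.60, -0.65 and -0.71. TXNIP, an arrestin-family protein known to restrain glucose uptake, was at 45.6, 46.1 and 26.9 RPKM, against 73.4 RPKM with sgRNA-NT. Its relative ARRDC4 was at 11.2, 6.6 and 3.6 RPKM, against 28.9 RPKM, and MLXIP, the glucose-sensing transcription factor MondoA that drives both, was at 2.4, 1.9 and 3.8 RPKM, against 6.4 RPKM. EPAS1, which encodes HIF-2alpha, was at 19.5, 17.5 and 14.9 RPKM, against 41.3 RPKM with sgRNA-NT. HIF1A was at 10.6 RPKM in each targeted library, against 16.9 RPKM. ARRDC4, TXNIP and EPAS1 were lowest with sgRNA-FOXF1, as SLC2A1 and HK2 were, and MLXIP with sgRNA-AP1-71. Any link between these genes was not tested. The list was chosen with earlier results known, and its ratios are not corrected for length. Transcripts of ARRDC4, EPAS1 and HIF1A (4062, 5155 and 3946 nt) are longer than the median of 2902 nt. TXNIP has 2895 nt, and MLXIP had no length.

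HIF-regulated genes outside glycolysis did not share a direction. Of 19 compared, 1, 6 and 4 were at least 1.5-fold higher (beside 8.18%, 14.0% and 11.6% of all genes compared) and 1, 2 and 4 lower (beside 9.93%, 14.7% and 13.2%) in the targeted libraries (sgRNA-AP1-69, sgRNA-AP1-71, sgRNA-FOXF1), with medians of 0.08, 0.28 and 0.10. CA12, a carbonic anhydrase at the cell surface, was at 2.0, 4.0 and 5.4 RPKM and at the floor of 1.0 RPKM with sgRNA-NT. NDRG1, a stress-induced gene, was at 3.0, 6.4 and 5.4 RPKM, against 2.1 RPKM, and HILPDA, a lipid droplet protein, at 4.0, 5.9 and 6.0 RPKM, against 3.0 RPKM. ERO1L, an oxidase of the endoplasmic reticulum, was at 4.9, 5.3 and 4.2 RPKM, against 8.1 RPKM with sgRNA-NT. Whether HIF had a part in the lower SLC2A1 and HK2 was not tested.

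GAPDH often serves as a reference gene, and 13 other such genes moved in both directions, more of them up. Above sgRNA-NT were 8, 10 and 9 of them in the targeted libraries, beside 55.0%, 55.1% and 53.9% of all genes compared. Their median log2 ratios were 0.09, 0.30 and 0.13. At least 1.5-fold higher were 0, 3 and 4 of the 13 in the targeted libraries (sgRNA-AP1-69, sgRNA-AP1-71, sgRNA-FOXF1), beside 8.18%, 14.0% and 11.6% of all genes compared, and 2, 2 and 1 were lower, beside 9.93%, 14.7% and 13.2%. TFRC, the transferrin receptor, was at 10.6, 11.1 and 10.0 RPKM, against 20.1 RPKM with sgRNA-NT. RPLP0, a ribosomal protein, was at 707.6, 775.8 and 682.6 RPKM, against 499.5 RPKM, and HPRT1, of purine salvage, at 15.2, 19.3 and 17.7 RPKM, against 11.7 RPKM.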

How the data were processed

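RNA of 4 libraries was sequenced as single 65 bp reads. Per the labels, the RNA was isolated with Trizol and the Oligotex kit and libraries were made with the TruSeq RNA kit, whereas the paper's methods name TRIsure and a stranded TruSeq mRNA kit, and the strand setting of the counting is not given. The authors aligned reads to hg19 with TopHat2, counted them per gene with HTSeq (each version not given in the sources used here), converted counts to RPKM with GENCODE v25, quantile-normalized the 4 libraries and set a floor of 1. Equal values were found at 72.5% of ranks of the 4 sorted columns, so a value reflects rank, and total RNA content cannot be compared. The deposited RPKM values have no counts beside them, so depth is unknown and no counting error or interval could be given. A further 3 columns of the authors hold log2 ratios to sgRNA-NT and were not used.

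Log2 ratios were computed without a pseudocount for genes averaging at least 2 RPKM, and a difference of at least 1.5-fold was counted. With 1 library per condition no test was run. Transcript lengths and gene positions are those of the canonical transcript of GENCODE v44 lifted to hg19, promoters those of RefSeq. Members and lists were chosen with earlier results of these data known. Named are the members past 1.5-fold in any targeted library, those at the floor, the 2 highest of each role, up to 4 genes of each further list with the largest mean absolute ratio, and FOXF1; the mitochondrial transcripts and marker genes are given as lists, and some genes that the rule names are not reported here. Alternatives were a pseudocount of 1, no filter or a mean of at least 5 RPKM, centring on the median, a correction for length by a cubic spline with 5 knots, a 2-fold rule, leaving out either enhancer guide and, chosen after seeing the data, leaving out the mitochondrial transcripts. The scripts were tested on simulated data. Python 3.11.15, numpy 2.4.6, pandas 2.3.3, scipy 1.17.1 and matplotlib 3.10.9 were used.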

Additional observations from a re-analysis of the deposited data

How the results depend on the processing

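Ratios of named members to sgRNA-NT were recomputed with the pseudocount, centring, the length correction and without mitochondrial transcripts. None of those past 1.5-fold took the opposite sign, but that of GAPDH became 0.0 in all 3 libraries without mitochondrial transcripts. A pseudocount cannot change a sign, and centring moved ratios too little to do so. Ratios between targeted libraries were not followed gene by gene. With a pseudocount of 1, 1 member was at least 1.5-fold higher with sgRNA-AP1-69 (3 without) and 1 was lower with sgRNA-FOXF1 than the mean of the enhancer guides (2 without). With ratios centred on the median of all genes, the members' medians were 0.074 with sgRNA-AP1-69 (0.14 uncentred) and 0.16 with sgRNA-AP1-71 (0.24 uncentred), 1 member was higher with sgRNA-FOXF1 (3 uncentred), 0 in all 3 libraries, and 1 was lower with sgRNA-FOXF1 than the enhancer mean. After correction for length, 1 member was higher with sgRNA-AP1-69, 1 with sgRNA-FOXF1 and 0 in all 3. By a 2-fold rule, 0 members were higher and 1 was lower with sgRNA-AP1-69, 1 was higher with sgRNA-AP1-71, 0 with sgRNA-FOXF1 and 0 in all 3, while 1 (HK2) was lower in all 3 and 0 lower with sgRNA-FOXF1 than the enhancer mean. Without sgRNA-AP1-69, 3 members were higher in both remaining libraries and 4 were lower with sgRNA-FOXF1 than with sgRNA-AP1-71; without sgRNA-AP1-71, 1 was lower with sgRNA-FOXF1 than with sgRNA-AP1-69. Without mitochondrial transcripts, 0 were higher in all 3 and 1 was lower with sgRNA-FOXF1 than the enhancer mean. For the other 74 values, counts moved by at most 1.5-fold and medians by less than the spread between the guides. Of 20 ratios of named members past 1.5-fold, 16 remained with the pseudocount, 17 with centring, 14 with the length correction and 17 without mitochondrial transcripts. Lost with the length correction were ALDOC and PDK3 with sgRNA-AP1-69, GAPDH and PDK3 with sgRNA-AP1-71, and GAPDH and PFKP with sgRNA-FOXF1. No paired analysis was possible because each condition has 1 library. Depth and replicate error are unknown, and every ratio to sgRNA-NT rests on its single library.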

Other observations

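Several enzymes that handle galactose and UDP-glucose, a group chosen after the values were seen from the further genes of the pathway, were above sgRNA-NT in each targeted library. GALK1, which phosphorylates galactose, was at 17.9 with sgRNA-AP1-69, 19.5 with sgRNA-AP1-71 and 18.8 RPKM with sgRNA-FOXF1, against 10.6 RPKM with sgRNA-NT. UGP2, which makes UDP-glucose, was at 6.9, 7.7 and 8.1 RPKM, against 4.6 RPKM. GALM, the galactose mutarotase, was at 6.2, 7.3 and 5.5 RPKM, against 4.1 RPKM. GALT, the uridylyltransferase, was at 2.0, 1.9 and 2.6 RPKM, against 1.3 RPKM with sgRNA-NT, near the floor. Their log2 ratios, without GALT, lay between 0.42 and 0.88. Of all genes compared, 40.3% were above sgRNA-NT in all 3 libraries, and 4.98% were at least 1.5-fold higher in all 3. The transcripts of GALK1, UGP2 and GALM (1397, 2150 and 2277 nt) are shorter than the median of 2902 nt, and these ratios were not corrected for length.

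The remaining subunits of the pyruvate dehydrogenase complex, also picked after their values were seen, were below sgRNA-NT in each targeted library. So were 29.2% of all genes compared. The E1 subunits were below sgRNA-NT with sgRNA-FOXF1 alone. PDHX, which anchors the E3 subunit, was at 5.8, 5.2 and 4.7 RPKM in the targeted libraries (sgRNA-AP1-69, sgRNA-AP1-71, sgRNA-FOXF1), against 8.1 RPKM with sgRNA-NT. DLAT, the E2 subunit, was at 4.4, 5.1 and 4.4 RPKM, against 6.0 RPKM, and DLD, the E3 subunit, at 6.9, 5.0 and 5.5 RPKM, against 7.7 RPKM. Of these values only those of PDHX and DLD with sgRNA-AP1-71 and of PDHX with sgRNA-FOXF1 were past 1.5-fold. Of all genes compared, 14.7% and 13.2% were lower by as much in these libraries. The transcripts of DLAT and DLD (3878 and 3537 nt) are longer than the median of 2902 nt, and that of PDHX (2500 nt) is shorter. The ratios of these subunits were not corrected for length either.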
